A study of Mus musculus with 12 samples.

Results

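The genes described here act in ribosome biogenesis and in transcription by RNA polymerase I. They were chosen by symbol from a list of 51 genes, of which 50 had a row in all 3 deposited tables of 23366 gene symbols. Noc2l is not analysed here. In each table all 50 were at 10 or above in 2 or more libraries, so all were tested. They were ordered by role into 6 genes of RNA polymerase I transcription, 4 of the box C/D small nucleolar ribonucleoproteins (snoRNPs), 5 of the box H/ACA snoRNPs, 16 of small subunit assembly, 13 of large subunit assembly and 6 other nucleolar proteins.

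Total RNA depleted of rRNA was sequenced from the mouse pre-T cell line Beko, in 12 libraries that form 6 groups of 2. Cells given 10 µg/ml DAPT, which inhibits the γ-secretase that releases the Notch intracellular domain, were compared with cells given DMSO, both for 24 h. In an experiment with its own DMSO controls, cells were given 0.01 µg/ml of the histone deacetylase inhibitor apicidin for 24 h. In the third, cells infected with plasmids for a hairpin against Hdac3 (shHdac3; the sample descriptions name a single hairpin, Sh1) were compared with cells carrying a scrambled hairpin, both 96 h after puromycin. All groups are the same cell line, and the labels give no other genotype or age. Libraries of the DAPT experiment held 37237080 to 42815304 gene reads, those of the apicidin experiment 21766984 to 29652001, and the hairpin libraries 24673559 to 29004315. Hdac3, the gene targeted by the hairpin, stood at 774 and 819 normalized reads with shHdac3 and 2012 and 1930.1 with the scrambled hairpin (log2 fold change -1.31 ± 0.05). All 14 listed pre-T cell markers were detected, and the B cell markers Ms4a1, Pax5 and Ebf1 and the erythroid markers Hbb-b1 and Hba-a1 were at 0 in every library. Other listed members were detected: across all libraries Blnk of the B cell list lay between 19.8 and 139.5 normalized reads, and Gata1 (112 to 254), Epor (67.8 to 205) and Klf1 (8.23 to 48.1) of the erythroid list were present. The summed erythroid list was 445 to 502 with DAPT against 386 to 440.1 with DMSO, 236 to 261 with apicidin against 272 to 316, and 194 to 232 with shHdac3 against 258 to 294. The summed B cell list overlapped its controls with DAPT and apicidin and was 27.8 to 30.3 with shHdac3 against 47.0 to 49.1. The summed fibroblast list was 80.2 to 82.3 with DAPT against 31.3 to 36.9, 42.7 to 49.2 with apicidin against 22.9 to 28.4, and 36.0 to 40.7 with shHdac3 against 32.7 to 49.1. Within this last sum, at low values, Col1a2 stood higher with shHdac3 (30.9 and 32.3 against 16.3 and 15.4). Col1a1 stood lower there (5.14 and 7.30 against 15.3 and 30.9). The summed myeloid markers, nearly all Itgam, were 472 to 536 with DAPT against 242 to 247 with DMSO, 752 to 799.8 with apicidin against 509 to 536, and 379.7 to 408 with shHdac3 against 374 to 394. The summed pre-T cell markers were lower in the treated libraries of all 3 experiments, at 193787 to 195915 with DAPT against 199690 to 202970, 107364 to 107441 with apicidin against 134495 to 135223, and 115874 to 118784 with shHdac3 against 148073 to 148395. The sum did not describe every pre-T cell marker. With DAPT, Ptcra, Cd3d, Cd3e, Cd3g, Rag1, Rag2, Lck and Il2ra lay below both controls. Cd247, Thy1, Dntt, Tcf7, Gata3 and Bcl11b lay above both. Above both controls with apicidin were Cd247, Tcf7 and Gata3, and with shHdac3 Cd247, Thy1, Il2ra and Gata3. The part of all these markers in the results below was not tested.

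Ribosomes are built in the nucleolus. RNA polymerase I transcribes the long precursor of the 18S and 28S rRNAs, snoRNPs guide its methylation and pseudouridylation, and a large set of assembly factors folds and cuts it as ribosomal proteins join the small and large subunits. Growing lymphocytes make many ribosomes, and the transcription factor MYC, which binds E-box sequences and is a known Notch target in T cell progenitors, is a well-known activator of genes of this pathway.

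Nearly all of the 50 genes fell with DAPT, fewer passed the test with apicidin, and most rose with the Hdac3 hairpin. At an adjusted p under 0.05 (limma with an intensity trend, Benjamini-Hochberg adjustment over all genes tested), 49 of the 50 were lower with DAPT and 0 were higher, where 23.1% of the 12840 genes tested were lower and 20.1% higher, or 43.2% in either direction. The median log2 fold change of the 50 genes was -0.55, or 68.5% of the control level, against 0.00 over all genes, whose quartiles lay at -0.16 and 0.18. With apicidin 19 were lower and 2 were higher, where 19.9% of the 12463 genes tested were lower and 18.2% were higher, or 38.1% in either direction. The median was -0.08, against 0.00 over all genes. With shHdac3 42 were higher and 0 lower, where 22.5% of the 12482 genes tested were higher and 19.4% were lower (41.9% in all), and the median was 0.29, against 0.00 over all genes. Over the whole table the higher share of all calls depended on the scaling: it was 46.6% with DAPT and 53.8% with shHdac3, but 56.5% and 43.5% with upper-quartile factors. With those factors the counts of the 50 genes were 49 lower with DAPT and 40 higher with shHdac3, where 18.9% and 18.1% of all genes were. Values are relative to the other genes of a library, and in such bulk RNA fewer cells of a type and less RNA per cell cannot be told apart.

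**Figure D1:**
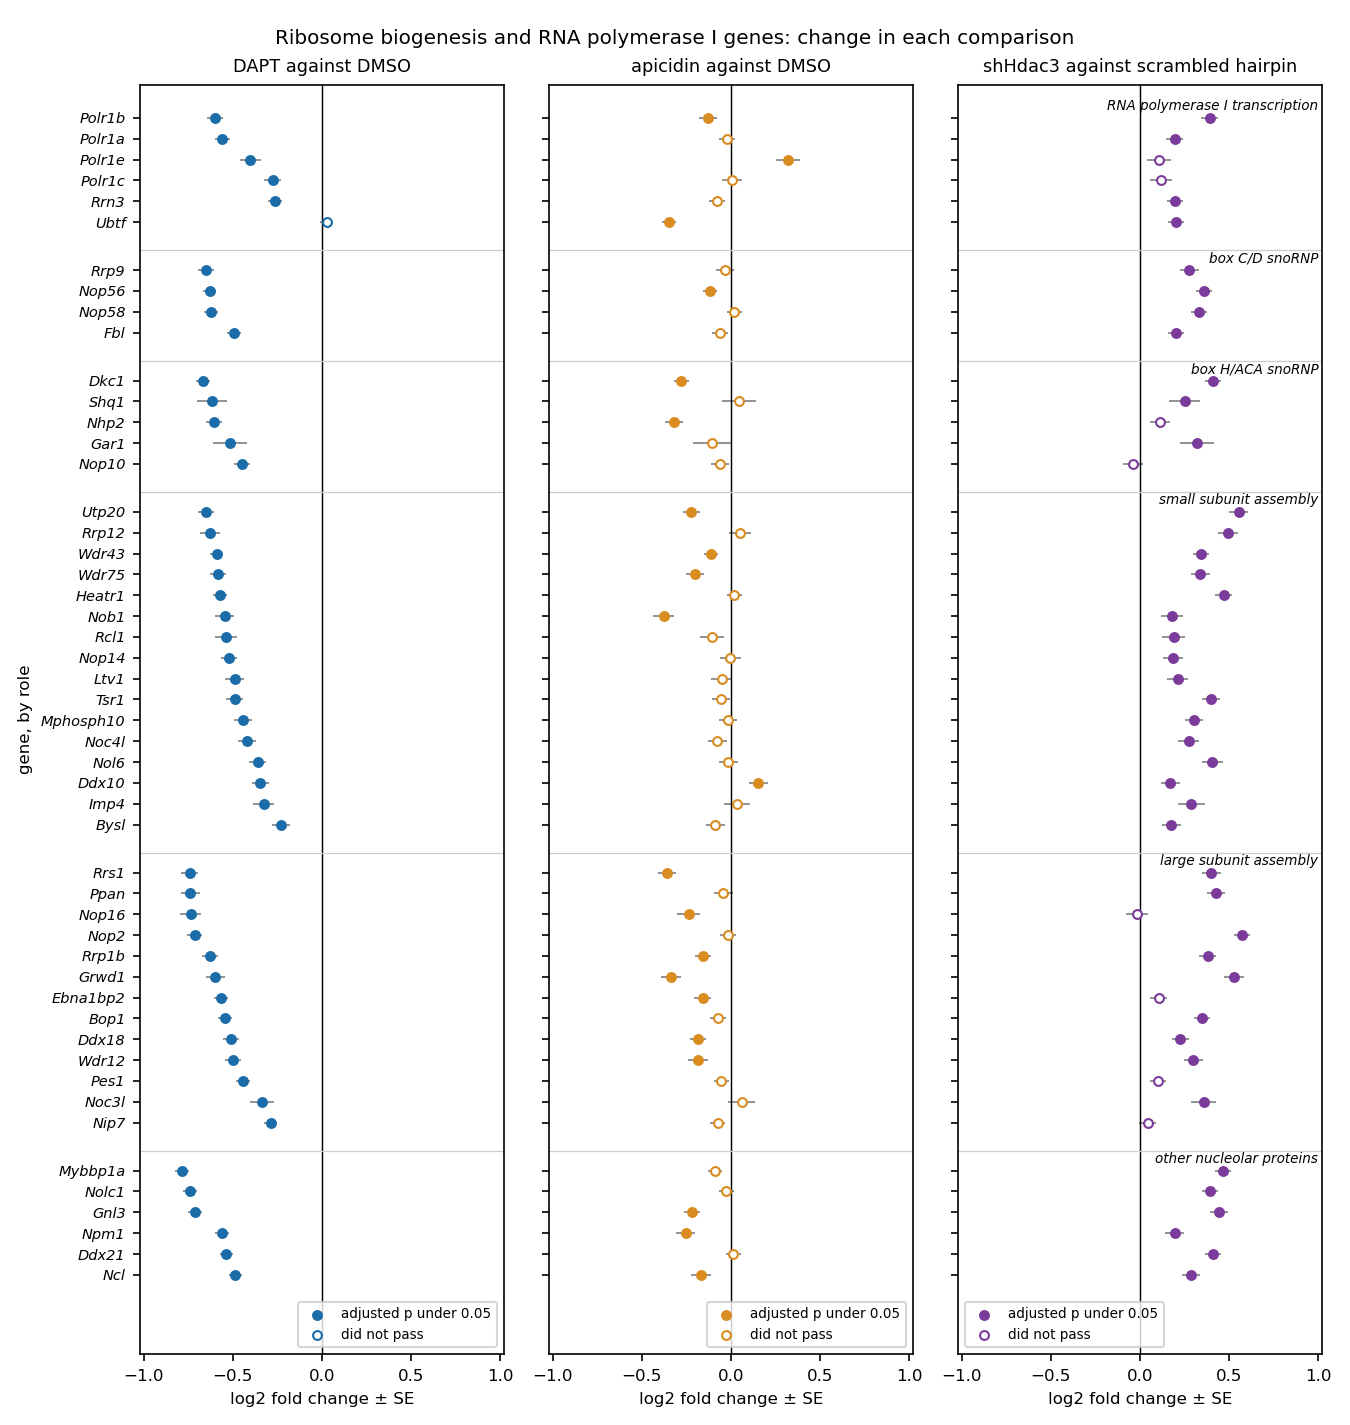
Log2 fold change ± SE of the limma fit (x axis) for each of the 50 genes (y axis, grouped by role and ordered within a role by the DAPT change), from 2 treated and 2 control libraries per comparison. Filled points passed an adjusted p of 0.05. They lie left of 0 with DAPT (49 of 50 genes filled) and right of 0 with shHdac3 (42 of 50 filled). With apicidin fewer are filled, and most of those lie left of 0.

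The 50 genes together took 0.470% and 0.476% of all gene reads in the DAPT libraries and 0.661% and 0.675% in their DMSO controls. They took 0.533% and 0.522% with apicidin and 0.562% and 0.525% with its DMSO controls, so these groups overlapped as shares of all gene reads. As summed normalized reads they did not overlap, at 127038 and 127423 with apicidin and 141699 and 136808 with DMSO. With shHdac3 they took 0.648% and 0.649%, above the 0.526% and 0.523% of the scrambled libraries. Within each library the median of the 50 genes, on the log2 scale over the mean of the 2 controls, was -0.56 and -0.53 for DAPT, -0.10 and -0.06 for apicidin, and 0.33 and 0.27 for shHdac3. The treated libraries of a pair therefore differed by far less than DAPT or shHdac3 differed from their controls.

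**Figure D2:**
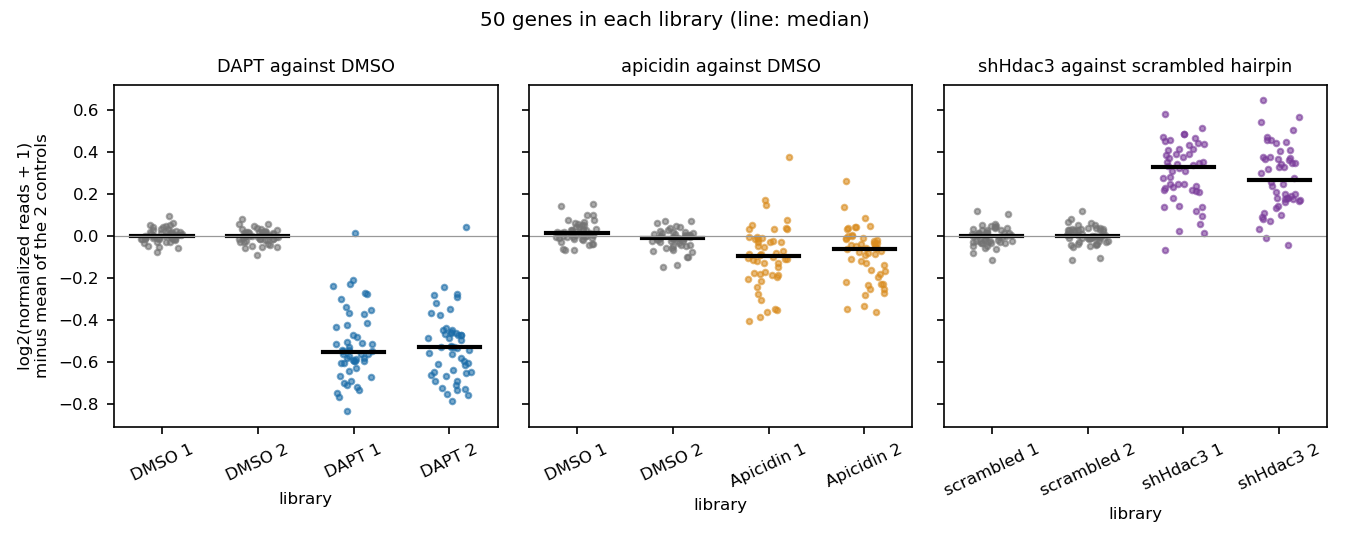
Each point is 1 of the 50 genes in 1 library, as log2(normalized reads + 1) minus the mean of the 2 control libraries of that experiment (y axis), and the line is the median over the genes. Both DAPT libraries lie below their controls (medians -0.56 and -0.53) and both shHdac3 libraries above theirs (0.33 and 0.27).

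Short windows around the start sites were examined because most of the genes changed in the same direction within an experiment. RefSeq promoter windows (250 bases before to 50 after a start site, GRCm38.p6) were matched by symbol for 44 of the 50 genes. The E-box letters CACGTG, which read the same on both strands, occurred in 10 of the 44 genes (22.7%). They occurred in 11.6% of the genes tested with DAPT that had a window and in 8.09% of all 27025 genes with windows. The motif GTGGGAA, the core of the site of the Notch partner RBPJ, searched on both strands, occurred in 5 of the 44 (11.4%), and in 7.14% and 7.25% of the same 2 backgrounds. Windows of 30 bases around the E-box are shown for 5 genes, on the strand of the gene with the E-box in capitals: Nop2, Mybbp1a, Utp20 and Grwd1, which are among the genes whose changes differed most between experiments, and Rrn3, an RNA polymerase I factor whose window holds 2. In GRCm38 they lie at chr6:125131811-125131840 (Nop2, + strand), chr11:72441347-72441376 (Mybbp1a, + strand), chr10:88826765-88826794 (Utp20, - strand), chr7:45830740-45830769 (Grwd1, - strand), and chr16:13780472-13780501 and chr16:13780639-13780668 (Rrn3, + strand).
Nop2: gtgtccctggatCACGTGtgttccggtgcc
Mybbp1a: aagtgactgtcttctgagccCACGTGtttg
Utp20: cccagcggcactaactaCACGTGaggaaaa
Grwd1: aagggccggagtcgCACGTGtgaaaccgga
Rrn3, distal: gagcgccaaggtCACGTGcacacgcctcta
Rrn3, proximal: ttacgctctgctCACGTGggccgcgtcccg
Counted from the RefSeq start site, the first E-box base lies at -60 in Nop2 and at -215 and -48 in Rrn3. In Mybbp1a, Utp20 and Grwd1 it lies within the first 50 bases of the transcript. The 250 bases upstream of Nop2 (chr6:125131633-125131882, + strand, E-box in capitals) show its surroundings. Nop2 was chosen because it had the largest fall with DAPT among the genes with an E-box upstream of the start site.
Nop2 upstream: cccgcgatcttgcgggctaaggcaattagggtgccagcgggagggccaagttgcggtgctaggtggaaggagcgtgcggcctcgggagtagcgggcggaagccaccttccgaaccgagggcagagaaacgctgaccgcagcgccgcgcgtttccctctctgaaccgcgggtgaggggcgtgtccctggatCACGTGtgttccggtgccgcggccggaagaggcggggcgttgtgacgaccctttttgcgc
With DAPT the median change of the 10 genes with an E-box in the window was -0.54, and that of the 34 without it was -0.54. The medians were -0.07 and -0.08 with apicidin and 0.37 and 0.27 with shHdac3. A match describes the letters and not a bound site. E-boxes outside the windows were not searched, and the part of the E-box in the responses was not tested. For context, Myc itself stood at 5061 and 5337 with DAPT and 9342 and 9047 with DMSO (-0.82 ± 0.04, adjusted p = 7.27e-14), at 4636 and 4422 with apicidin and 5055 and 5329.8 with DMSO (-0.20 ± 0.04, adjusted p = 0.00173), and at 4475 and 4238 with shHdac3 and 4118 and 4291 with the scrambled hairpin (0.05 ± 0.05, adjusted p = 0.39). The Myc groups did not overlap with DAPT or apicidin and overlapped with shHdac3.

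The first comparison asked which of these genes respond to γ-secretase inhibition, and 5 of the 6 RNA polymerase I genes fell with DAPT, with a group median of -0.34. Polr1b, which encodes the second-largest subunit of the polymerase, fell most, from 2426 and 2393 normalized reads with DMSO to 1594 and 1583 with DAPT (-0.60 ± 0.04, adjusted p = 2.61e-10). The largest subunit gene Polr1a fell by 0.56 on the log2 scale, the accessory subunit gene Polr1e by 0.40, the subunit gene Polr1c, shared with RNA polymerase III, by 0.28, and Rrn3, the factor that brings the polymerase to its promoter, by 0.27. Ubtf, whose product binds and opens the rDNA, was the 1 gene of the 50 that did not pass: it stood at 8502 and 8680.2 with DAPT and 8351 and 8531 with DMSO (0.03 ± 0.04, adjusted p = 0.611). Its groups overlapped, while in each of the other 49 genes both DAPT libraries lay below both controls, as they did in 35.5% of all genes tested.

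All 4 box C/D and all 5 box H/ACA snoRNP genes fell, with medians of -0.63 and -0.61. In the box C/D group Rrp9, a protein specific to the U3 snoRNP, fell most, from 2078 and 2091 to 1331 and 1323 (-0.65 ± 0.05). The methyltransferase gene Fbl fell least, from 5739 and 5823 to 4008 and 4197 (-0.50 ± 0.04), and the scaffold genes Nop56 and Nop58 fell by 0.63 and 0.62. In the box H/ACA group the pseudouridine synthase gene Dkc1 fell most, from 5965 and 6069.9 to 3772 and 3801 (-0.67 ± 0.04), and Nop10, a small core protein, fell least, from 3038 and 3175 to 2312 and 2236 (-0.45 ± 0.04). The other core genes Nhp2 and Gar1 and the assembly chaperone gene Shq1 fell by 0.61, 0.52 and 0.62, so the log2 changes of the 9 snoRNP genes lay between -0.67 and -0.45.

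All 16 small subunit and all 13 large subunit assembly genes fell as well, with medians of -0.51 and -0.57. Utp20, a very large processome protein, led the small subunit group with a fall from 3039 and 3162 to 1999 and 1948 (-0.65 ± 0.04). Bysl, which acts late in small subunit maturation, fell least, from 1465 and 1406 to 1238 and 1209 (-0.23 ± 0.05), and still without overlap. Between them lay early processome genes such as Wdr43, Wdr75 and Heatr1 (falls of 0.59, 0.58 and 0.57) and other late-acting genes such as Nob1, the endonuclease of the 18S rRNA end, and Ltv1 (0.55 and 0.49). In the large subunit group Rrs1 fell most, from 2033 and 1989 to 1194 and 1210.2 (-0.74 ± 0.05), close to Ppan (-0.74), Nop16 (-0.74) and the rRNA methyltransferase gene Nop2 (-0.71). Nip7 fell least, from 4910.2 and 5057 to 4047 and 4113 (-0.29 ± 0.04). The members of the PeBoW complex of the large subunit pathway, Bop1, Wdr12 and Pes1, fell by 0.54, 0.50 and 0.44.

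Among the other nucleolar genes all 6 fell, with a median of -0.64. Mybbp1a, a nucleolar protein that also binds transcription factors, had the largest change of all 50 genes, from 10767 and 10691 to 6004 and 6447 (-0.79 ± 0.04, adjusted p = 2.04e-13). Nolc1, a snoRNP chaperone, stood at 4913 and 5119 against 8390.3 and 8369 (-0.74 ± 0.04), and Gnl3, the nucleolar GTPase nucleostemin, fell by 0.71. The abundant proteins nucleolin (Ncl) and nucleophosmin (Npm1) fell by 0.49 and 0.56. Npm1 has processed pseudogenes, and the treatment of reads that fit several places is not stated in the labels or notes. The DAPT count was 49 lower in every setting tried but the fit without an intensity trend. That fit called 47, where 12.7% of all genes were lower.

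The comparison with apicidin asked what low-dose inhibition of histone deacetylases does to the same genes, and here most changes were small. The genes that fell were spread over all roles: 2 of 6 in RNA polymerase I transcription, 1 of 4 box C/D, 2 of 5 box H/ACA, 4 of 16 small subunit, 7 of 13 large subunit and 3 of 6 other nucleolar genes. Over all genes tested 19.9% fell, so the box C/D and small subunit counts were near that share. The largest fall was that of Nob1, from 961 and 1056 with DMSO to 759 and 790.3 with apicidin (-0.38 ± 0.06, adjusted p = 0.0001). Rrs1 led the large subunit genes, from 1369 and 1342 to 1062 and 1054 (-0.36 ± 0.05), and Grwd1, a histone chaperone also found with preribosomes, stood at 760.4 and 819 against 991 and 1002 (-0.34 ± 0.06). These libraries did not overlap with their controls.

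Ubtf, which had not changed detectably with DAPT, fell with apicidin from 6315 and 6331 to 4940.0 and 5007 (-0.35 ± 0.04, adjusted p = 3.09e-06). Polr1e went the other way, from 673 and 622 to 839 and 776 (0.32 ± 0.07, adjusted p = 0.000993). Within the RNA polymerase I machinery a factor and a subunit thus moved in opposite directions, each without overlap between its groups. Ddx10, an RNA helicase of the small subunit pathway, was the other gene that rose, from 1663 and 1504 to 1782 and 1736 (0.15 ± 0.05, adjusted p = 0.0275). It no longer passed when 1 library was left out: the adjusted p was 0.143 without apicidin replicate 1, 0.0503 without replicate 2 and 0.277 without DMSO replicate 2.

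In the box H/ACA group Nhp2 stood at 1248 and 1331 against 1594 and 1622 (-0.32 ± 0.05) and Dkc1 fell by 0.28, while the values for Gar1, Nop10 and Shq1 were -0.11, -0.06 and 0.05 and did not pass. Nop56 was the 1 box C/D gene called, with 6031 and 5992 against 6426 and 6614 (-0.12 ± 0.04, adjusted p = 0.0311), and the adjusted p rose to 0.131 without apicidin replicate 1, 0.156 without replicate 2 and 0.118 without DMSO replicate 2. Npm1 fell from 25025 and 23081 to 19853 and 20432 (-0.25 ± 0.05). Nop2, Nolc1 and Ddx21, all called with DAPT, stood at -0.02, -0.03 and 0.01 with overlapping groups. In all, both apicidin libraries lay below both controls in 29 genes and above them in 3, where 34.6% and 34.4% of all genes did so. The count of 19 lower genes rested on the test. By DESeq2 and by the authors' deposited adjusted p 9 were lower, where 8.11% of all genes were. Without an intensity trend 6 were lower, where 8.48% of all genes were. Leaving out any 1 library gave 14 to 16, and Ncl, for example, reached an adjusted p of 0.232 without apicidin replicate 2 and of 0.315 without DMSO replicate 1.

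**Figure D3:**
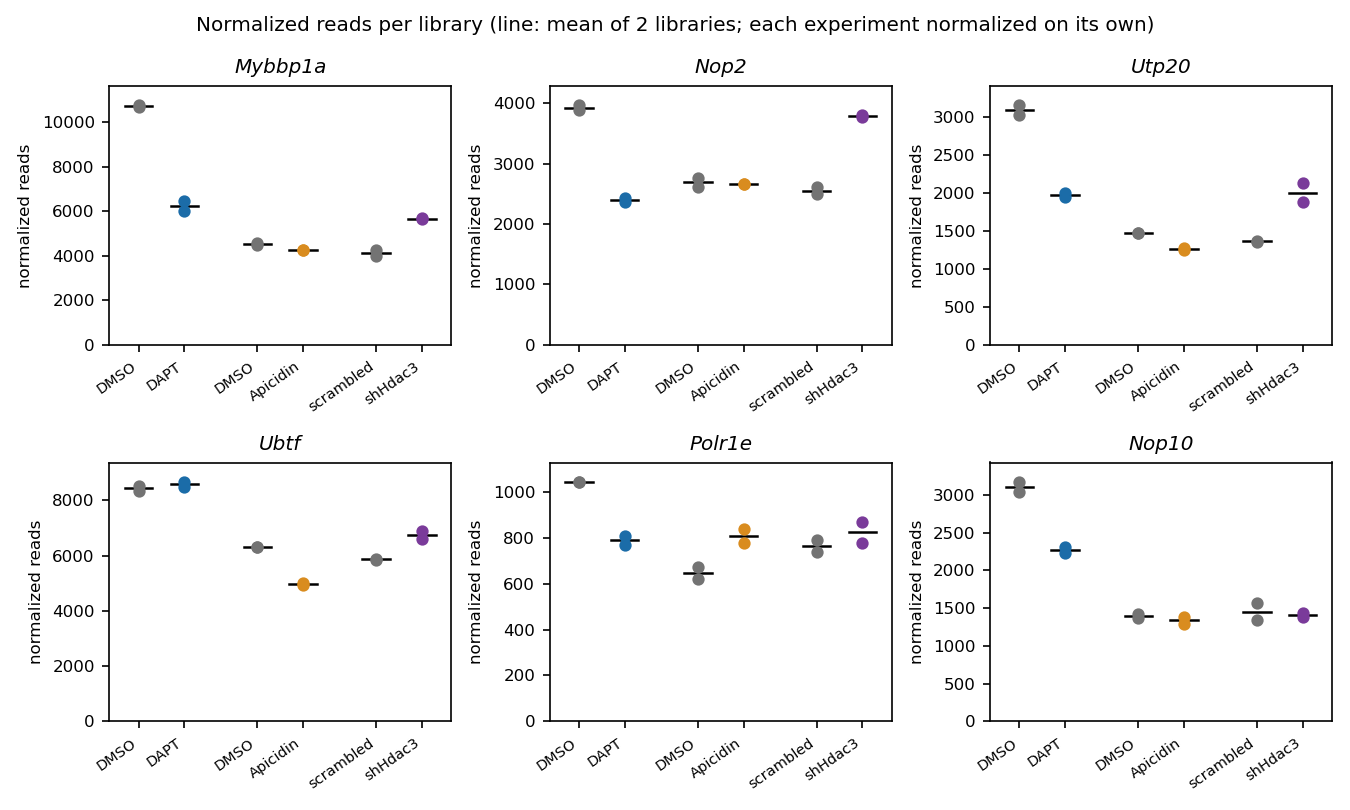
Normalized reads (y axis, from 0) in each of the 12 libraries for 6 genes, with points for libraries and lines for the mean of 2; levels are comparable only within an experiment. Mybbp1a, Nop2 and Utp20 are lower with DAPT and higher with shHdac3, Ubtf is level with DAPT and lower with apicidin, Polr1e is higher with apicidin, and Nop10 is lower with DAPT with overlapping groups in the other 2 experiments.

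The hairpin comparison asked what knockdown of Hdac3 does, and genes rose in every role group. All 16 small subunit genes, all 4 box C/D genes and all 6 other nucleolar genes were higher, with 4 of 6 RNA polymerase I, 3 of 5 box H/ACA and 9 of 13 large subunit genes. The medians ran from 0.20 for the RNA polymerase I genes, over 0.30 for the box C/D and small subunit genes, to 0.40 for the other nucleolar genes. Nop2 rose most, from 2495 and 2609 with the scrambled hairpin to 3809 and 3781 with shHdac3 (0.57 ± 0.05, adjusted p = 1.32e-14). Utp20 rose from 1361 and 1369 to 1882 and 2136 (0.55 ± 0.05) and Grwd1 from 1013 and 941 to 1392 and 1422 (0.53 ± 0.06). Both shHdac3 libraries lay above both controls in 45 of the 50 genes, as they did in 35.6% of all genes.

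Polr1b led the RNA polymerase I genes, from 1681 and 1768 to 2294 and 2228 (0.39 ± 0.05), and Ubtf stood at 6909.6 and 6587 against 5878 and 5859 (0.20 ± 0.04, adjusted p = 0.000238). Polr1c (0.12) and Polr1e (0.11) did not pass, although Polr1e did without shHdac3 replicate 1 (adjusted p = 0.0449). Nop56 rose from 7128 and 7016 to 9008 and 9113 (0.36 ± 0.04), Dkc1 from 2918 and 3032 to 3958 and 3938 (0.41 ± 0.05) and Mybbp1a from 3970.4 and 4246 to 5693 and 5636 (0.46 ± 0.05). None of these 3 overlapped between groups.

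The genes that did not pass with shHdac3 came from 3 roles. In the box H/ACA core, Dkc1 and Gar1 were higher, while Nhp2 (1663 and 1712 against 1678 and 1450.3, 0.11 ± 0.06) and Nop10 (1380.3 and 1439.7 against 1571 and 1338, -0.04 ± 0.06) did not pass and overlapped. Scrambled replicate 1 was the higher control for both: without it Nhp2 passed as higher (0.22, adjusted p = 0.00323), and without scrambled replicate 2 Nop10 passed as lower (-0.16, adjusted p = 0.0491). In the large subunit group Nop16 (-0.02 ± 0.06), Nip7 (0.04 ± 0.05), Pes1 (0.10 ± 0.05) and Ebna1bp2 (0.11 ± 0.05) did not pass. Ebna1bp2 did without shHdac3 replicate 2 (0.14, adjusted p = 0.0495). Bop1 and Wdr12, the partners of Pes1 in the PeBoW complex, rose by 0.35 and 0.30. Whether members of a complex differed from each other was not tested. The count of 42 was 33 by DESeq2, where 10.3% of all genes were higher, and 23 without an intensity trend, where 7.54% were. Of the smaller rises, Bysl (0.18 ± 0.05), Ddx10 (0.17 ± 0.05), Nob1 (0.18 ± 0.06) and Npm1 (0.19 ± 0.05) were lost without shHdac3 replicate 1. The box H/ACA genes Gar1 and Shq1 were lost there too, and also by DESeq2 and without an intensity trend. Nob1 and Nop14 were lost without scrambled replicate 2, Shq1 and Rcl1 without scrambled replicate 1, and Rcl1 also without shHdac3 replicate 2.

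**Figure D4:**
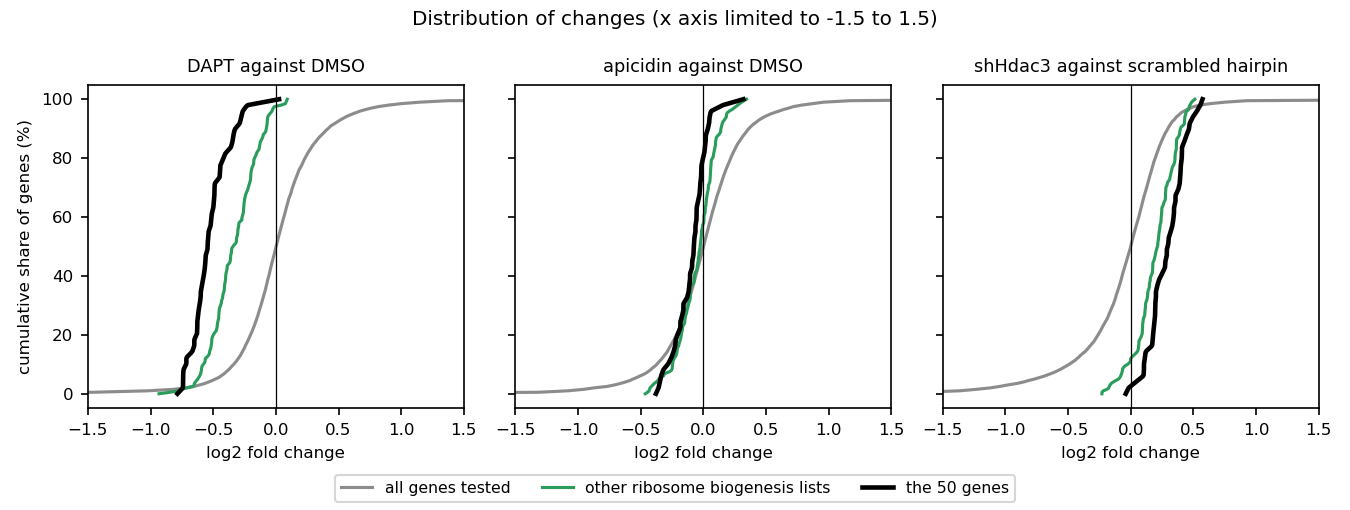
Cumulative share of genes (y axis, in percent) at or below each log2 fold change (x axis) for the 50 genes (black), 118 other ribosome biogenesis genes (green) and all genes tested (grey). The black line is shifted left of the grey with DAPT (medians -0.55 and 0.00) and right of it with shHdac3 (0.29 and 0.00), and the median of the green line lies between them (-0.34 and 0.21).

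Across the comparisons, 41 of the 50 genes (82%) were both lower with DAPT and higher with shHdac3, against 1160 of the 12204 genes tested in all 3 comparisons (9.51%). Lower with both DAPT and apicidin were 18 (36%), against 7.45% of all genes. Lower with both DAPT and shHdac3 were 0, against 3.76%. Since nearly all of the 50 genes were lower with DAPT, these joint counts largely follow from the counts of the single comparisons. They do not show a separate link between the responses. The commonest pattern, in 25 genes, was lower with DAPT, not passed with apicidin and higher with shHdac3, and 15 were lower, lower and higher. The 15 included Polr1b, Dkc1, Utp20, Grwd1, Ncl, Npm1 and Gnl3. The 3 experiments share no control libraries. Over the 50 genes the DAPT and shHdac3 changes ran in opposite order (Pearson r = -0.45, Spearman rho = -0.53, n = 50 genes from the same libraries), against -0.06 and -0.18 over the 12204 genes. The apicidin and shHdac3 changes showed r of -0.06 and rho of 0.01 over the 50 genes, against 0.27 and 0.20 over the 12204. The DAPT and apicidin changes showed 0.19 and 0.28 over the 50 genes, against 0.27 and 0.21. Genes in 1 set of libraries are not independent replicates, so these are descriptions.

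**Figure D5:**
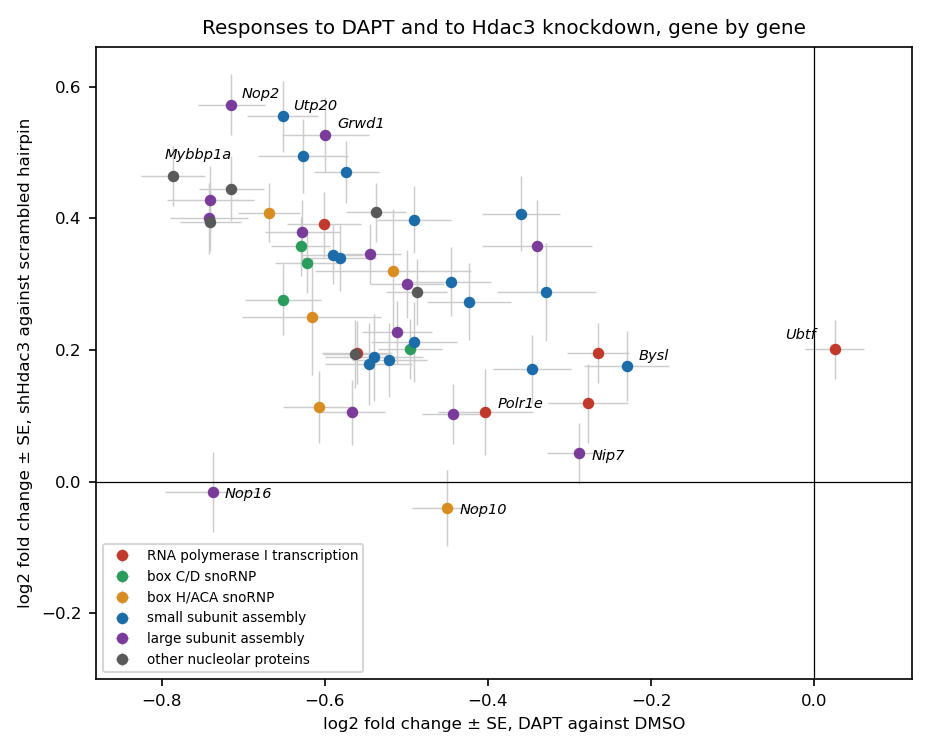
Log2 fold change ± SE with shHdac3 (y axis) against that with DAPT (x axis) for each of the 50 genes, coloured by role. Most genes lie in the upper left (41 passed as lower with DAPT and higher with shHdac3), with Nop2, Utp20 and Grwd1 highest and Ubtf alone right of 0.

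The difference between the responses was tested directly in 1 fit over all 12 libraries. The DAPT change was lower than the apicidin change in 47 genes and higher in 1, where 18.8% and 16% of the 13042 genes tested were so, or 34.8% in either direction. It did not pass for Bysl and Nob1. Among those that passed, the differences of Polr1e (-0.73 ± 0.09), Nolc1 (-0.73 ± 0.06) and Nop2 (-0.71 ± 0.06) were the largest, and the 1 in the other direction was Ubtf (0.36 ± 0.05, adjusted p = 1.31e-05). For Nolc1 the 2 apicidin libraries stood at 5028 and 5036 against 5244 and 5009, and for Nop2 at 2659.8 and 2658 against 2618 and 2765, so these genes fell with DAPT and overlapped with apicidin. The DAPT change was lower than the shHdac3 change in all 50, where 23.8% of genes were, with a median difference of -0.78. The apicidin change was lower than the shHdac3 change in 40 and higher in 0, where 18.3% and 15.1% of genes were so, with a median difference of -0.41. Rrs1, for example, fell with apicidin and rose with shHdac3 from 1273 and 1208 to 1701 and 1573 (0.40 ± 0.05), and the difference was -0.75 ± 0.07. DAPT and apicidin were each given for 24 h and the hairpin acted for 96 h after puromycin, in separate experiments. In both contrasts with shHdac3, agent, time, delivery and experiment therefore cannot be told apart.

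Some features that played no part in choosing the genes were compared. In GENCODE vM21 on GRCm38, 8 of the 50 genes (Nop56, Nop58, Dkc1, Wdr43, Tsr1, Ppan, Ncl and Gnl3) hold snoRNA genes inside their bodies. All 8 fell with DAPT, as did 41 of the other 42 (medians -0.63 and -0.54) and 23.1% of all genes tested. All 8 rose with shHdac3, as did 34 of the other 42 (0.38 and 0.26) and 22.5% of all genes tested. With apicidin 5 of the 8 and 14 of the other 42 fell, against 19.9% of all genes tested. Whether reads of those snoRNAs were counted with the host is not stated in the labels or notes. Of the exonic bases of Tsr1, a late small subunit factor, 32.3% overlap Srr on the opposite strand, and those of Bysl overlap Ccnd3 over 9.37%. The strand setting of the counting is not given, so such reads may not be separable. Levels were compared between genes as normalized reads per kb of coding length in the control libraries. Coding length leaves out untranslated exonic bases: Nop10 has 192 coding and 1109 exonic bases, and Ncl 2121 and 10188. Before division by length, Nop10 stood at 3038 and 3175 and Ncl at 28645 and 29089 in the DMSO libraries of the DAPT experiment. The order of genes and the correlations below therefore hold for this length only, and other lengths were not tried. Npm1 was highest in each experiment, at 69975 and 71661 in the DMSO libraries of the DAPT experiment, followed there by Nop10 at 15822 and 16536 and Ncl at 13505 and 13715, and these 3 genes did not overlap. Shq1 (372 and 368) and Utp20 (363 and 378) were lowest and overlapped with each other. Across the 50 genes, the correlation of this level with the change was r = -0.02 and rho = -0.09 for DAPT, r = -0.34 and rho = -0.41 for apicidin, and r = -0.35 and rho = -0.26 for shHdac3, as descriptions over genes from the same libraries.

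Of 9 other genes of RNA polymerase I, 6 fell and 0 rose with DAPT (median -0.22), 1 fell with apicidin (median 0.03), and 3 rose and 1 fell with shHdac3 (median 0.06). Over all genes tested 23.1% fell with DAPT, 19.9% fell with apicidin and 22.5% rose with shHdac3. The polymerase subunit gene Cd3eap fell with DAPT from 962 and 935 to 603 and 655 (-0.59 ± 0.06) and rose with shHdac3 from 471 and 493 to 651 and 646 (0.43 ± 0.07), in both without overlap. Another subunit gene, Twistnb, fell by 0.30 with DAPT and rose by 0.36 with shHdac3, and the subunit genes Znrd1 and Polr1d fell with DAPT by 0.22 and 0.13. Of the promoter selectivity factor SL1, Taf1a fell with DAPT (-0.40 ± 0.07) and apicidin (-0.21 ± 0.08), and Taf1d fell with DAPT (-0.26 ± 0.04) and rose with shHdac3 (0.13 ± 0.05). Taf1b and Taf1c passed in none of the 3 comparisons, with values from -0.05 to 0.06. The transcription termination factor gene Ttf1 was the 1 that fell with shHdac3 (-0.18 ± 0.05), and stood at -0.07 ± 0.04 with DAPT (adjusted p = 0.154).

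A wider set of 118 ribosome biogenesis genes, made up of those 9 with 37 other small subunit, 45 other large subunit, 11 other snoRNP assembly and 16 RNA exosome and rRNA end-processing genes, moved in the same directions with a smaller median. With DAPT 100 fell and 0 rose (median -0.34), where 23.1% and 20.1% of all genes tested did so. With apicidin 30 fell and 13 rose (-0.03), against 19.9% and 18.2% of all genes. With shHdac3 79 rose and 5 fell (0.21), against 22.5% and 19.4%. The largest falls with DAPT were those of Naf1, an H/ACA assembly factor (-0.93 ± 0.06), Lyar, a nucleolar zinc finger protein (-0.79 ± 0.05), and Znhit6, a box C/D assembly factor (-0.74 ± 0.08). With apicidin they were those of Pih1d1, of the R2TP chaperone complex (-0.46 ± 0.06), and of the small subunit genes Aatf (-0.43 ± 0.05) and Pwp2 (-0.43 ± 0.05). With shHdac3 the leading changes were rises of the processome gene Utp15 (0.51 ± 0.05), the large subunit gene Wdr18 (0.49 ± 0.05) and the R2TP gene Rpap3 (0.48 ± 0.05).

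The other nuclear RNA polymerases were set beside these genes. Over all genes tested, 23.1% fell and 20.1% rose with DAPT, 19.9% fell and 18.2% rose with apicidin, and 22.5% rose with shHdac3. Of 20 genes of RNA polymerase III, 9 fell and 1 rose with DAPT (median -0.13), 3 fell and 3 rose with apicidin (0.01) and 11 rose with shHdac3 (0.17). Of 7 RNA polymerase II subunit genes, 5 fell and 1 rose with DAPT (-0.19), 1 fell and 2 rose with apicidin (0.10) and 3 rose with shHdac3 (0.09). The 5 subunit genes shared between the polymerases all fell with DAPT (-0.30), 1 fell with apicidin (0.06) and 1 rose with shHdac3 (0.06).

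The deposited row for the 45S pre-rRNA, Rn45s, holds what was left of it after rRNA depletion. Rn45s stood at 552673 and 615182 with DAPT and 978007 and 596157 with DMSO (-0.39 ± 0.13, adjusted p = 0.0163). The groups overlapped, and the controls differed more than the treated libraries. Without DMSO replicate 1 the value was -0.03 (adjusted p = 0.769), and by DESeq2 the adjusted p was 0.410. With apicidin it stood at 494540.0 and 623146 against 691131 and 828826 (-0.45 ± 0.18, adjusted p = 0.0634). With shHdac3 it stood at 579503 and 521329 against 841787 and 738406 (-0.52 ± 0.16, adjusted p = 0.00571), the opposite direction to the 42 assembly and polymerase genes that rose there. That call was lost without shHdac3 replicate 1 (adjusted p = 0.163), shHdac3 replicate 2 (0.325) or scrambled replicate 1 (0.142). By DESeq2 the adjusted p of Rn45s was 0.123 with apicidin and 0.000252 with shHdac3. By edgeR it was 0.0051 with DAPT, 0.0304 with apicidin and 2.4e-05 with shHdac3. The part of the depletion step in the Rn45s values was not tested.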

How the data were processed

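RNA of Beko cells was extracted and rRNA-depleted stranded libraries were made, per the labels' protocols. The submitters' processing notes list DESeq2, TopHat, Bowtie2, FastQC and the mm9 build and give neither roles nor versions. Which counter, annotation and strand setting were used is not given in the sources used here. Per the file headers, each experiment's table holds a normalized signal for every gene in 4 libraries beside the authors' own means, log2 fold changes, a test score, p-values and adjusted p-values. A deposited signal is a read count over the size factor of its library, since all signals were within 1e-06 of a whole multiple of 1 read; reads and depths were recovered this way. Nothing in the labels says that replicates are separate cultures, so the p-values reflect spread between these libraries, perhaps only technical.

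The main test was limma 3.58.1 in R 4.3.3, two-sided, with log2(value + 1) as input and an intensity trend. It covered genes at 10 or above in 2 or more of the 4 libraries, with Benjamini-Hochberg adjustment and a threshold of 0.05. Every adjusted p without another name is from it, and fold changes are on the log2(value + 1) scale. The design named edgeR for the case of raw counts; the tables hold normalized values, so limma was used. Differences between responses used limma over all 12 libraries in 6 groups. Alternatives were other pseudocounts, filters, scalings, edgeR 4.0.16, DESeq2 1.42.0, the authors' deposited adjusted p, no intensity trend, a replicate block and leaving out each library. The fits were tested on simulated reads.

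The genes and lists were chosen with earlier results of these data known. The symbol Mpp6 was removed from the exosome list after its values were seen, because in mouse it names a different gene. Genes with values by library were, per role and comparison, the called gene with the largest change, the gene with the smallest DAPT change, genes called against the majority, genes that did not pass with DAPT, and the 3 largest differences between responses. Other genes are named by their values alone. Gene positions are from GENCODE vM21 (GRCm38) and sequences from RefSeq (GRCm38.p6); the authors' build was mm9, and no coordinates were converted.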

Additional observations from a re-analysis of the deposited data

Results flagged for a closer look

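The responses of these genes differed between the 3 experiments by a direct test of the difference (limma over all 12 libraries). Agent and experiment cannot be told apart in these contrasts, nor can time in those with shHdac3. The DAPT and apicidin responses differed in 48 of the 50 genes, with Polr1e (-0.73 ± 0.09, adjusted p = 1.78e-06), Nolc1 (-0.73 ± 0.06, adjusted p = 8.16e-10) and Nop2 (-0.71 ± 0.06, adjusted p = 2.66e-09) at the largest size. The DAPT and shHdac3 responses differed in all 50, led by Nop2 (-1.29 ± 0.06, adjusted p = 3.29e-14), Mybbp1a (-1.26 ± 0.06, adjusted p = 5.71e-14) and Utp20 (-1.21 ± 0.07, adjusted p = 3.87e-12). The apicidin and shHdac3 responses differed in 40, led by Grwd1 (-0.86 ± 0.08, adjusted p = 1.28e-08), Utp20 (-0.77 ± 0.07, adjusted p = 2.16e-08) and Rrs1 (-0.75 ± 0.07, adjusted p = 2.01e-08). Over all 13042 genes tested, 34.8%, 43.8% and 33.4% differed in these 3 contrasts. Groups of 2 libraries are too small to ask whether a single library stands apart.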

How the results depend on the processing

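No called value changed direction under the alternatives that were run. Counted over the called genes and the alternatives, 782 values with DAPT kept their call and 2 lost it (Gar1 and Noc3l without an intensity trend). With apicidin 274 kept and 62 lost their call, and with shHdac3 621 kept and 51 lost it, while 4 values of genes that had not passed gained one. The apicidin count of 19 lower and 2 higher was 9 and 1 with DESeq2 and with the authors' deposited adjusted p, and 6 and 0 without an intensity trend. Over all genes the shares were 8.11% lower and 6.94% higher with DESeq2, and 8.48% and 7.56% without a trend. The shHdac3 count of 42 higher was 23 without a trend, where 7.54% of all genes were higher. Over the whole table, fits without a trend called 3114, 1999 and 2119 genes in place of 5546, 4746 and 5228, and DESeq2 called 3813, 2465 and 2961. With upper-quartile factors the median change was -0.51 with DAPT and 0.25 with shHdac3. Leaving out 1 library, with the lone sample assumed to vary like the other groups, gave 49 lower with DAPT (median -0.56 to -0.53), 14 to 16 lower and 1 to 2 higher with apicidin (medians -0.10 to -0.061), and 37 to 42 higher and 0 to 1 lower with shHdac3 (0.27 to 0.33). For the differences it gave 45 to 47, 50 and 37 to 41 lower, and 0 to 1 higher for apicidin minus shHdac3, where Polr1e passed without DMSO replicate 1 of the apicidin experiment (0.28, adjusted p = 0.0434) or shHdac3 replicate 2 (0.30, adjusted p = 0.0253). The replicate numbers share no label of culture or day, and same-numbered deviations correlated across genes by 0.02, 0.04 and 0.01 in the 3 experiments. With a replicate block the counts were 49 lower, 19 lower and 2 higher, and 42 higher, and 43 in place of 40 were lower for apicidin minus shHdac3. Depth did not limit detection of these genes, whose lowest value in a library was 265, but 2 libraries per group limit the precision.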
